A study of Mus musculus with 24 samples.

Results

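NF-kB is a transcription factor that immune and tissue cells switch on when they sense microbial products, damage or inflammatory cytokines, and a small group of miRNAs is transcribed in its wake. Described here are 6 mature miRNAs chosen by name from the deposited tables for their links to inflammation. They are mmu-miR-146a-5p, mmu-miR-146a-3p, mmu-miR-146b-5p, mmu-miR-155-5p, mmu-miR-155-3p and mmu-miR-147-3p, written below without the prefix for mouse. Whether NF-kB drives each of them in these lungs was not tested. All 6 were listed at each time point, among 1657, 1707 and 1767 mature miRNAs at day 14, day 90 and day 180 (1950 names in all). They were chosen by name and not by a threshold on these values, but with earlier results of these data known.

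Small RNA was sequenced from lungs of C57BL/6 mice aged 6 to 8 weeks when the study assigned them to groups. Irradiated mice received 15 Gy of X-rays to the whole thoracic cavity, with other parts of the body kept out of the beam. Their controls are labelled as control at the same days, and the labels do not say whether they were sham-handled. There were 4 irradiated and 4 control libraries at each of day 14, day 90 and day 180, 24 in total. Nothing in the labels ties each library to its own animal, and p-values therefore measure only the spread between these libraries, which may be technical. Pieces of lung were ground whole, so fewer cells of a type and less of a miRNA per cell cannot be told apart. miR-126a of endothelium and the miR-200 family of epithelium summed to 35772 to 57746 and 30426 to 68661 CPM over the 24 libraries. CPM are counts scaled by library size, as described below. No other tissue was compared, so these levels cannot test the lung label.

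miR-146a is induced by NF-kB and represses TRAF6 and IRAK1, which carry signals from Toll-like and interleukin-1 receptors to NF-kB, so it forms a negative feedback loop. miR-146b comes from a separate gene and shares its seed, the bases that pair with target mRNAs. miR-155 is processed from the non-coding transcript of Mir155hg, is induced in activated macrophages and lymphocytes, and represses SOCS1 and SHIP1, which restrain cytokine and phosphoinositide signalling. miR-147 is induced by Toll-like receptor ligands in mouse macrophages and dampens their cytokine output.

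The mature sequences show which of these miRNAs can read the same target sites. RefSeq's GRCm38.p6 table holds 5 of the 6, with no entry for miR-147-3p. They are printed 5′ to 3′ with the seed, bases 2 to 8, in capitals.
mmu-miR-146a-5p: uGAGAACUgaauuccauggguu
mmu-miR-146b-5p: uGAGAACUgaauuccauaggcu
mmu-miR-155-5p: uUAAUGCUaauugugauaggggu
mmu-miR-146a-3p: cCUGUGAAauucaguucuucag
mmu-miR-155-3p: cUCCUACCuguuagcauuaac
miR-146a-5p and miR-146b-5p have the same seed and are identical at 20 of 22 bases, with G18A and U21C (the base of miR-146a-5p, its position from the 5′ end, then the base of miR-146b-5p). No other mature miRNA of the 1679 names in that table carries this seed, and none shares the seed of miR-155-5p.

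The miR-146a hairpin lies at chr11:43374397-43374461 on the minus strand, outside other annotated genes (GRCm38, GENCODE M21). That of miR-146b lies at chr19:46342762-46342870 on the plus strand, in an intron of Mfsd13a. The miR-155 hairpin lies at chr16:84714140-84714204 on the plus strand, in an exon of Mir155hg. The miR-147 hairpin lies at chr2:122640803-122640881 on the plus strand, in the annotated UTR of the protein-coding gene AA467197. The 4 genes are thus on 4 chromosomes, and only the miR-146a and miR-155 loci contribute both arms to the 6 miRNAs.

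Total counts lay between 2832205 and 3695133 per library. CPM were computed from the counts with TMM scaling within a day. The days were scaled apart, so levels set side by side across days are descriptive. A count is a read of a whole mature miRNA, so levels are not divided by length, but ligation and PCR can favour some sequences over others. Irradiated library 1 of day 180 had the lowest total and the lowest median Spearman correlation with the other libraries of its day, 0.914 against 0.94 to 0.962. The next lowest correlation, 0.94, was that of irradiated library 4. Of the 552 miRNAs tested at day 180, 29.2% were highest in irradiated library 1 and 23.4% in irradiated library 4.

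The 6 miRNAs covered very different levels, and the mean levels of the 4 more abundant ones kept 1 order on the 3 days. miR-146a-5p ranked 29th to 31st by mean level, miR-146b-5p 63rd to 78th, miR-155-5p 116th to 163rd and miR-147-3p 402nd to 573rd. Over the 24 libraries miR-146a-5p had 941491 reads, miR-146b-5p 203419, miR-155-5p 37135 and miR-147-3p 490. The 3p arms of miR-146a and miR-155 had 23 and 19 reads. The filter on low counts kept 3 of the 6 at day 14 and 4 of the 6 at day 90 and day 180. Neither of these 3p arms passed it on any day, and miR-147-3p did not pass it at day 14. At day 90 and day 180 miR-147-3p passed it mainly through its reads in irradiated lungs.

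**Figure D1:**
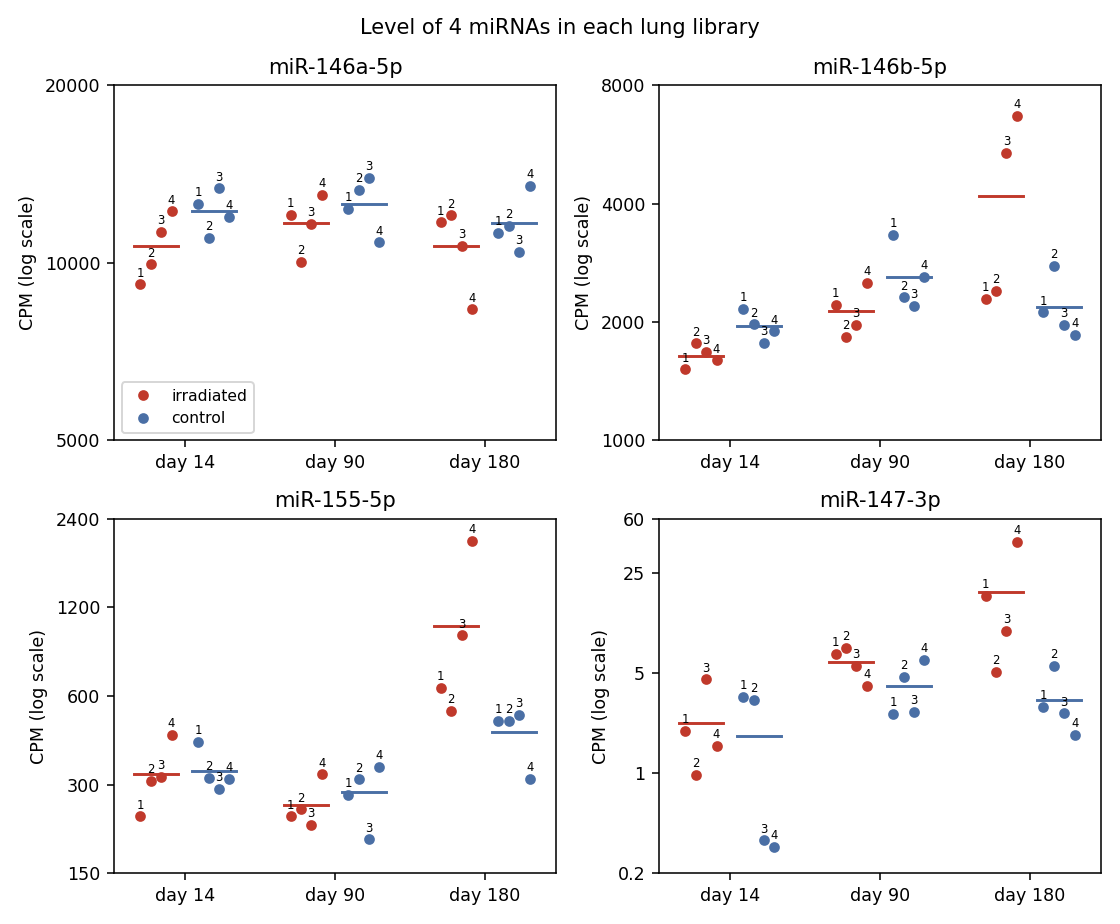
CPM on a log scale of miR-146a-5p, miR-146b-5p, miR-155-5p and miR-147-3p in each of the 24 lung libraries, irradiated left of control at each day. Points are libraries with their replicate number and lines are means of 4. At day 180 irradiated library 4 is the highest of the 8 libraries for miR-146b-5p, miR-155-5p and miR-147-3p and the lowest for miR-146a-5p.

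At day 14 the level of each of the 3 tested miRNAs was slightly below that of the controls on average, and none passed the test. miR-146a-5p, the feedback inhibitor of NF-kB signalling, stood at 9197, 9942, 11305 and 12231 CPM in irradiated lungs, against 12588, 11023, 13383 and 11956 CPM in control lungs. Irradiated libraries 1 and 2 were below every control, and libraries 3 and 4 lay inside the control range. miR-146b-5p stood at 1516, 1765, 1679 and 1597 CPM in irradiated lungs, against 2162, 1973, 1771 and 1894 CPM in control lungs.

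The miR-146b-5p groups did not overlap, but the highest irradiated library, at 1765 CPM, lay just under the lowest control library, at 1771 CPM. On the deposited RPM scale they overlapped, with 449 RPM in irradiated library 2 and 422 RPM in control library 3. miR-155-5p, the miRNA of activated leukocytes, stood at 234, 310, 320 and 444 CPM in irradiated lungs, against 420, 317, 290 and 313 CPM in control lungs, and the groups overlapped. miR-147-3p had 6, 3, 14 and 5 reads in irradiated lungs, against 11, 11, 1 and 1 reads in control lungs, too few for a comparison.

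The comparison at day 14 asked whether these miRNAs differed early after irradiation. The log2 fold change (irradiated over control) was -0.20 ± 0.11 (SE) for miR-146a-5p, -0.25 ± 0.11 for miR-146b-5p and -0.04 ± 0.22 for miR-155-5p. The edgeR quasi-likelihood adjusted p was 0.907, 0.883 and 0.978. Of the 3 tested, 0 passed, against 0 of all 499 miRNAs (0%), of which 27 (5.41%) had an unadjusted p under 0.05, miR-146b-5p among them. DESeq2 and limma-voom called none of the 3, and over all miRNAs 1 and 0. In 1 of the 3 the groups did not overlap, with irradiated lower, against 1.6% of all miRNAs (2.4% in either direction). The intervals of the difference (95%) were -0.45 to 0.06 for miR-146a-5p and -0.49 to -0.01 for miR-146b-5p. The labels do not state a pairing. On this day same-numbered libraries deviated together (r of 0.145 to 0.462), so the numbers were taken to pair them. Irradiated library 2 was nonetheless more like control library 4 than control library 2. With the replicate block the values were -0.20, -0.25 and -0.05 (edgeR adjusted p = 0.743, 0.743 and 0.966). miR-146b-5p was lower in the irradiated library of all 4 pairs. Groups that do not overlap give this under any pairing, so it adds nothing to the separation. The smallest two-sided exact p of 4 pairs is 0.125. The sign of the miR-155-5p value turned without irradiated library 1 or 2 or control library 1, so it had no stable direction.

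At day 90 none of the 4 tested miRNAs passed either, and in all 4 the groups overlapped. miR-146a-5p stood at 12081, 10039, 11632 and 13042 CPM in irradiated lungs, against 12362, 13319, 13937 and 10831 CPM in control lungs. miR-146b-5p stood at 2208, 1833, 1971 and 2511 CPM in irradiated lungs, against 3333, 2310, 2201 and 2603 CPM in control lungs. Irradiated libraries 2 and 3 of miR-146b-5p were below every control.

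miR-155-5p stood at 234, 247, 220 and 326 CPM in irradiated lungs at day 90, against 277, 313, 196 and 345 CPM in control lungs. miR-147-3p, the Toll-like receptor-induced macrophage miRNA, had 24, 26, 19 and 16 reads in irradiated lungs, against 9, 16, 9 and 24 reads in control lungs. That is 6.82, 7.5, 5.65 and 4.09 CPM in irradiated lungs, against 2.6, 4.72, 2.7 and 6.16 CPM in control lungs. Irradiated libraries 1 and 2 of miR-147-3p were above every control.

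The log2 fold changes at day 90 were -0.11 ± 0.11 (SE) for miR-146a-5p, -0.29 ± 0.17 for miR-146b-5p, -0.14 ± 0.22 for miR-155-5p and 0.56 ± 0.35 for miR-147-3p. The edgeR adjusted p was 0.768, 0.538, 0.902 and 0.624. Of the 4 tested, 0 passed, against 2 of all 558 miRNAs (0.358%), and 0 of the 4 had an unadjusted p under 0.05, against 71 of all 558 (12.7%). Groups that did not overlap were found in 0 of the 4 and in 7.17% of all miRNAs, 4.84% with irradiated higher and 2.33% with irradiated lower. The interval of miR-147-3p was -0.21 to 1.33, which at these counts does not exclude a difference of 1 log2 unit. DESeq2 and limma-voom called none of the 4, and 18 and 3 of all miRNAs. Striated muscle markers, of which 0 of 5 passed, summed to 933 to 3867 CPM in irradiated lungs on this day, against 355 to 1272 CPM in controls. All 5 were above 0, and in 2 of them, miR-208a-3p (49.9 to 409 CPM in irradiated lungs, 0 to 35.4 CPM in controls) and miR-499-5p (48.1 to 70.7 CPM in irradiated lungs, 22.6 to 39.9 CPM in controls), the groups did not overlap. Their part in the values of these 4 was not tested.

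At day 180 miR-146b-5p, miR-155-5p and miR-147-3p had higher means in irradiated than in control lungs, none of which passed the test, while the mean of the seed twin miR-146a-5p was slightly lower. miR-147-3p averaged 18.4 ± 16 CPM in irradiated lungs and 3.25 ± 1.63 CPM in controls (SD over 4 libraries each), a ratio of 5.65. For miR-155-5p the averages were 1038 ± 675 CPM in irradiated lungs and 455 ± 94.1 CPM in controls, a ratio of 2.28. For miR-146b-5p they were 4187 ± 2192 CPM in irradiated lungs and 2179 ± 415 CPM in controls, a ratio of 1.92. For miR-146a-5p they were 10698 ± 1671 CPM in irradiated lungs and 11684 ± 1300 CPM in controls, a ratio of 0.916.

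The libraries of the irradiated group were far apart from each other in these 3 miRNAs. miR-146b-5p stood at 2290, 2401, 5377 and 6679 CPM in irradiated libraries 1 to 4, against 2118, 2780, 1969 and 1852 CPM in control lungs. Irradiated libraries 3 and 4 were above every control, and libraries 1 and 2 lay inside the control range. The counts behind these were 5553, 8497, 21268 and 24187 in irradiated lungs, against 7971, 10416, 6760 and 5988 in control lungs, so reads do not limit them.

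miR-155-5p stood at 640, 535, 964 and 2014 CPM in irradiated libraries 1 to 4 of day 180, against 493, 493, 518 and 315 CPM in control lungs. All 4 irradiated libraries were above all 4 controls, libraries 1 and 2 by little and libraries 3 and 4 by more. On the deposited RPM scale irradiated library 1 (117.917 RPM) lay just under control library 2 (117.998 RPM), so the separation depends on the scaling. miR-155-5p in control library 4, at 315 CPM, lay apart from the 493 to 518 CPM of the other 3 controls.

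miR-147-3p had 42, 18, 39 and 149 reads in irradiated libraries 1 to 4 of day 180, against 11, 21, 9 and 6 reads in control lungs. That is 17.3, 5.09, 9.86 and 41.1 CPM in irradiated lungs, against 2.92, 5.6, 2.62 and 1.86 CPM in control lungs. Irradiated libraries 1, 3 and 4 were above every control and library 2 lay under control library 2. Unlike miR-146b-5p and miR-155-5p, miR-147-3p was higher in irradiated library 1 than in library 3.

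miR-146a-5p stood at 11719, 12037, 10690 and 8344 CPM in irradiated libraries 1 to 4 of day 180, against 11234, 11542, 10450 and 13509 CPM in control lungs. Only irradiated library 4, which was highest for the other 3 miRNAs, was below every control.

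The comparison at day 180 asked the same question late after irradiation. The log2 fold change was 2.48 ± 0.66 (SE) for miR-147-3p, with an edgeR adjusted p of 0.163. That miRNA passed the filter on low counts mainly through its 18 to 149 reads in irradiated lungs, against 6 to 21 in controls. The log2 fold change was 1.19 ± 0.42 for miR-155-5p and 0.94 ± 0.36 for miR-146b-5p, both with an edgeR adjusted p of 0.259. For miR-146a-5p it was -0.13 ± 0.16 (edgeR adjusted p = 0.691). The median of all miRNAs tested was 0.13. Of the 4 tested, 0 passed, against 0 of all 552 miRNAs (0%). An unadjusted p under 0.05 was found for miR-155-5p and miR-146b-5p, against 101 of all 552 (18.3%). That of miR-147-3p was also under 0.05 but is set aside, because of how it passed the filter. In 1 of the 4, miR-155-5p, the groups did not overlap with irradiated higher, against 5.43% of all miRNAs, and in 0 of the 4 with irradiated lower, against 6.52%. The exact permutation p of miR-155-5p was 0.0286 (two-sided), the smallest that 4 against 4 libraries allow. For miR-147-3p the exact permutation p was 0.0571, given as a value only.

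Other settings of the day 180 fit reached the threshold for some of these miRNAs. The results of miR-147-3p are given as values only, since it passed the main filter mainly through irradiated reads. miR-147-3p passed with DESeq2 (adjusted p = 0.00588), with no filter on low counts (0.0193) and with all 24 libraries in 1 edgeR fit (0.0276), and over all its alternatives the adjusted p ran between 0.00588 and 0.479. miR-146b-5p and miR-155-5p passed with all 24 libraries in 1 edgeR fit (adjusted p = 0.0371 for both), in ranges of 0.0371 to 0.697 and 0.0371 to 0.496. The 0.697 belongs to the edgeR fit with miR-146a-5p and miR-146b-5p counts added into 1 feature, not to miR-146b-5p alone. limma-voom called none of the 4. Without irradiated library 4 the log2 fold changes were 1.72 for miR-147-3p, 0.67 for miR-155-5p and 0.63 for miR-146b-5p. Over all miRNAs at day 180 DESeq2 called 29 and limma-voom 0.

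**Figure D2:**
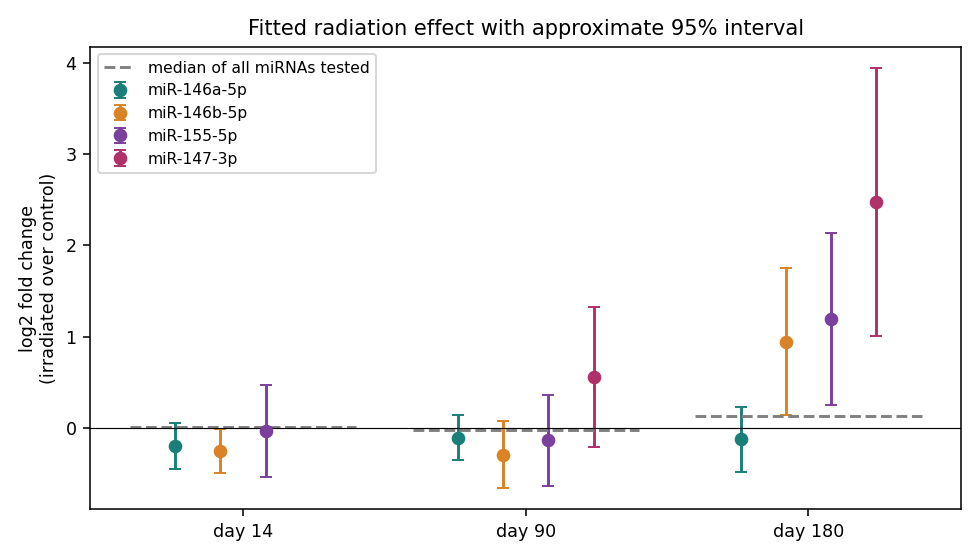
Fitted log2 fold change (irradiated over control) of each tested miRNA at day 14, day 90 and day 180, with the 95% interval of the edgeR quasi-likelihood fit and the median of all miRNAs tested as a dashed line. At day 180 miR-147-3p, miR-155-5p and miR-146b-5p lie at 2.48, 1.19 and 0.94 with wide intervals, while miR-146a-5p lies at -0.13.

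Whether the radiation effect differed between days was tested in 1 fit of the 24 libraries over 624 miRNAs present in the 3 tables. For miR-146b-5p the effect at day 180 exceeded that at day 90 by 1.21 ± 0.35 (SE) on the log2 scale, with an interval of 0.47 to 1.94 and an edgeR adjusted p of 0.193. It exceeded the effect at day 14 by 1.16 ± 0.35 (edgeR adjusted p = 0.207). For miR-155-5p the differences were 1.30 ± 0.45 against day 90 and 1.18 ± 0.45 against day 14 (edgeR adjusted p = 0.269 and 0.301). For miR-147-3p they were 1.89 ± 0.86 and 2.15 ± 0.94 (edgeR adjusted p = 0.326 and 0.378). miR-147-3p entered this fit through its reads at the later days, and its difference from day 14 rests on 1 to 14 reads per library there. Both of its differences are given as values only. For miR-146a-5p they were -0.04 ± 0.19 and 0.06 ± 0.19 (edgeR adjusted p = 0.948 and 0.912). These differences share the day 180 libraries and are not separate evidence.

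Of the 4 miRNAs, 0 passed for either difference, against 0 of 624 (0%) for day 180 minus day 90 and 0 of 624 (0%) for day 180 minus day 14. By rank of the unadjusted p among the 624, miR-146b-5p was 7th for day 180 minus day 90 and 6th for day 180 minus day 14. At an unadjusted p under 0.05 stood 91 (14.6%) and 71 (11.4%) of all miRNAs. Among the 4 these were miR-146b-5p and miR-155-5p for both differences, with miR-147-3p set aside. For day 90 minus day 14 the differences lay between -0.12 and 0.27, with 0 of 4 passing against 0 of 624 (0%) and 0 of 4 at an unadjusted p under 0.05 against 28 of 624 (4.49%). DESeq2 called none of the 4 for any of these differences, and of all miRNAs 3 each for the differences from day 180 and 1 for day 90 minus day 14. The miR-146b-5p difference passed without irradiated library 2 of day 180 (0.0358 against day 14) and, against day 90, without irradiated library 1 or 2 of day 180, in ranges of 0.0358 to 0.521 and 0.0232 to 0.397.

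The seed twins can be compared inside a library, where scaling plays no part. At day 180 there were 5.12, 5.01, 1.99 and 1.25 reads of miR-146a-5p for each read of miR-146b-5p in irradiated libraries 1 to 4, against 5.3, 4.15, 5.31 and 7.29 in control lungs. Irradiated libraries 3 and 4 stood under every other library of the series, and libraries 1 and 2 lay inside the control range. At day 90 the ratio was 5.19 to 5.9 in irradiated lungs and 3.71 to 6.33 in control lungs. At day 14 it was 5.63 to 7.66 in irradiated lungs and 5.59 to 7.56 in control lungs.

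The mean log2 ratio of miR-146a-5p over miR-146b-5p at day 180 was 1.50 ± 1.01 in irradiated and 2.43 ± 0.33 in control lungs (SD, n = 4 each). The difference was -0.94, with an exact permutation p of 0.143 (two-sided) and an adjusted p of 0.514 over the 9 ratio tests of these miRNAs. Of the 9 tests 0 passed. With 2 bases between them, reads trimmed at the 3′ end could be counted for the wrong twin, and how the authors assigned such reads was not given in the sources used here. With their counts added into 1 feature the log2 fold change at day 180 was 0.10 ± 0.12 (SE, edgeR adjusted p = 0.697).

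**Figure D3:**
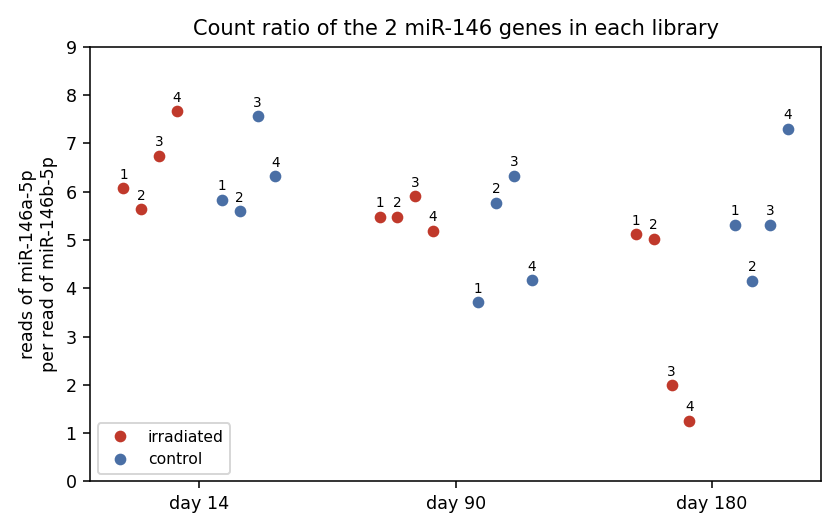
Reads of miR-146a-5p per read of miR-146b-5p in each of the 24 lung libraries by day, irradiated left of control, with replicate numbers beside the points and an axis that starts at 0. Irradiated libraries 3 and 4 of day 180 stand at 1.99 and 1.25, below the 3.71 to 7.66 of the other libraries.

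The 2 arms of a hairpin are cut from the same precursor, and usually only 1 of them is kept in the silencing complex. The hairpins of miR-146a and miR-155 are shown with both mature arms in capitals, the 5p arm first.
Mir146: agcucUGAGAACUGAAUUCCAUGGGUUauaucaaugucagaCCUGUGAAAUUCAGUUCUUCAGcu
Mir155: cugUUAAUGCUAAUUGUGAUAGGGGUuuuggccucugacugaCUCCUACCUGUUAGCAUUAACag
Over the 24 libraries the 3p arm took 0.00244% of the miR-146a reads (exact binomial 95% interval 0.00155% to 0.00367%) and 0.0511% of the miR-155 reads (0.0308% to 0.0798%). These intervals cover counting error only. miR-146a-3p had 0 to 3 reads per library with 11 libraries at 0, and miR-155-3p 0 to 6 reads with 13 libraries at 0.

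The most reads of miR-155-3p, 6, were in irradiated library 4 of day 180, the library with the most miR-155-5p reads (7292). In all, miR-155-3p had 10 reads in irradiated and 3 in control lungs at day 180, where miR-155-5p had 14550 and 6497. The log2 ratio of the 5p over the 3p arm of miR-155 was 10.26 ± 0.24 in irradiated and 10.65 ± 1.00 in control lungs at that day (SD, n = 4 each, 0.5 added to each count), with an exact permutation p of 0.514. With so few 3p reads a change of arm use was not detectable at this depth. The partner arms outside the chosen 6 were as scarce, miR-146b-3p with 0, 3, 9 and 12 reads in irradiated and 3, 7, 1 and 3 in control lungs at day 180, and miR-147-5p with at most 4 reads in any library of the 3 days.

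Other inflammation-linked miRNAs were set beside these as a list of 18, chosen with earlier results of these data known. It holds miR-9, miR-21a, miR-132, miR-212, miR-187, miR-221, miR-222, miR-223, miR-511 and the miR-99b, let-7e and miR-125a cluster. At day 180, 0 of 18 passed, 16 were above 0 and the median log2 fold change was 0.98, beside 325 of 552 above 0 and a median of 0.13 over all miRNAs. At day 90, 0 of 17 tested passed, 7 were above 0 and the median was -0.04, beside -0.02 over all. At day 14, 0 of 17 passed, 9 were above 0 and the median was 0.0022, beside 0.01 over all.

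Of the 18, 12 were highest in irradiated library 4 of day 180 and 4 in irradiated library 1, where 23.4% and 29.2% of all miRNAs were highest. miR-21a-3p, the minor arm of a miRNA linked to fibrosis, stood at 146, 105, 494 and 661 CPM in irradiated libraries 1 to 4, against 105, 85.9, 76 and 36.2 CPM in control lungs. Irradiated libraries 3 and 4 were again the high ones. This arm also varied at day 14, from 3.41 to 93.7 CPM in irradiated lungs and 5.22 to 77.4 CPM in controls. Its major arm miR-21a-5p stood at 21719 to 28901 CPM in irradiated lungs of day 180, against 17388 to 20211 CPM in controls. miR-187-3p of the same list stood at 1180, 1879, 1739 and 750 CPM in irradiated libraries 1 to 4, against 1472 to 1801 CPM in controls. Its irradiated libraries 1 and 4 were below every control. miR-212-3p, which is co-transcribed with miR-132, stood at 3.71, 37.3, 76.6 and 134 CPM in irradiated libraries 1 to 4, against 22.6, 22.9, 22.1 and 18.9 CPM in control lungs. Its irradiated library 1 was below every control and the other 3 were above them. The log2 fold change was 2.21 ± 0.61 (SE) for miR-21a-3p and 1.54 ± 0.75 for miR-212-3p, and neither passed (edgeR adjusted p = 0.164 and 0.312).

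Leukocytes are known to make miR-146a, miR-155 and miR-147, so the markers of these cells were examined as well. The list holds both arms of miR-142a, miR-223, miR-150 and miR-342, and its summed level at day 180 was 21218 to 25966 CPM in irradiated lungs and 21714 to 27617 CPM in controls. Of the 8, 5 were above 0 with a median log2 fold change of 0.16, and 0 passed. No marker was at 0 in all libraries. miR-150-5p alone made up 63.8% to 75.7% of the sum in irradiated lungs and 72.1% to 80.1% in controls, so the sum says little of the other markers. miR-223-3p, a miRNA of neutrophils and other myeloid cells, stood at 782, 1304, 1593 and 1758 CPM in irradiated libraries 1 to 4, against 1487, 1384, 1102 and 1653 CPM in control lungs, with overlapping groups.

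Some of the other leukocyte markers were high in irradiated libraries of day 180. miR-142a-3p stood at 1595 to 4426 CPM in irradiated lungs, against 1616 to 2433 CPM in controls. miR-142a-5p stood at 901 to 1614 CPM, against 983 to 1570 CPM in controls. miR-150-5p stood at 14139 to 18807 CPM in irradiated lungs, against 15651 to 22130 CPM in controls. miR-150-3p stood at 4.8 to 18.5 CPM, against 12.5 to 14.9 CPM in controls. miR-342-5p stood at 295, 72.6, 92.5 and 132 CPM in irradiated libraries 1 to 4, against 64.3, 62.7, 35.2 and 62.5 CPM in control lungs. The groups of miR-342-5p did not overlap, as in 5.43% of all miRNAs with irradiated higher. Its partner arm miR-342-3p stood at 384, 1254, 1692 and 2159 CPM in irradiated libraries 1 to 4, against 998, 1060, 1006 and 1140 CPM in control lungs. Library 1 of miR-342-3p was below every control and libraries 2 to 4 were above them. miR-223-5p stood at 8.25, 23.2, 23.3 and 85.3 CPM in irradiated libraries 1 to 4, against 18.9, 19.7, 10.2 and 17.9 CPM in control lungs. The log2 fold changes were 1.40 for miR-342-5p, 0.38 for miR-342-3p and 1.07 for miR-223-5p, and none passed (edgeR adjusted p = 0.251, 0.664 and 0.394). The part of leukocyte number in the levels of miR-146b-5p, miR-155-5p and miR-147-3p was not tested.

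miR-511-3p, encoded in an intron of the macrophage mannose receptor gene, stood at 31.3, 32.8, 54.6 and 193 CPM in irradiated libraries 1 to 4, against 29.8, 44, 34.1 and 34.6 CPM in control lungs. It was above every control in irradiated libraries 3 and 4, the libraries in which miR-146b-5p and miR-155-5p were also high. The part of macrophage number in the miR-146b-5p, miR-155-5p and miR-147-3p levels was not tested. The log2 fold change of miR-511-3p was 1.13 ± 0.57 (SE, edgeR adjusted p = 0.329).

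At day 14 and day 90 the summed leukocyte markers stood at 16336 to 19545 and 16475 to 22447 CPM in irradiated lungs, against 18611 to 22764 and 21569 to 31743 CPM in control lungs. Of the 8 markers, 7 were below 0 at day 14 and 6 at day 90, with 0 passing on either day. Their medians were -0.14 at day 14 and -0.32 at day 90, beside the slightly negative values of miR-146a-5p, miR-146b-5p and miR-155-5p on these days, and their part in these values was not tested.

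Summed epithelial and erythroid markers were below every control in irradiated libraries 3 and 4 of day 180, which was not so for endothelial and muscle markers. The 5 epithelial markers summed to 68661, 39176, 35344 and 30426 CPM in irradiated libraries 1 to 4, against 39906, 43249, 43170 and 42841 CPM in control lungs. Irradiated libraries 2, 3 and 4 were below every control and library 1 was above them all. miR-200a-3p stood at 5820 and 3685 CPM and miR-200b-3p at 2458 and 1789 CPM in irradiated libraries 3 and 4, against at least 8512 and 3800 CPM in control lungs. In the same libraries miR-200c-3p stood at 12524 and 11914 CPM, against 11150 to 12426 CPM in control lungs. There miR-429-3p stood at 12324 and 10720 CPM, against 11925 to 14982 CPM, and miR-141-3p at 2217 and 2318 CPM, against 2350 to 3639 CPM. Of the 5 markers, 2 were above 0, with a median log2 fold change of -0.08. The libraries highest in miR-146b-5p were the lowest in summed epithelial markers, though not in each marker.

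The 4 erythroid markers summed to 39203, 27845, 19487 and 21359 CPM in irradiated libraries 1 to 4 of day 180, against 26705, 26943, 33008 and 32976 CPM in control lungs. Irradiated libraries 3 and 4 were again below every control. miR-451a alone made up 89.6% to 95.8% of the erythroid sum in irradiated lungs and 88.4% to 92.6% in controls. Muscle markers summed to 413 to 1746 CPM in irradiated lungs and 601 to 3167 CPM in controls, with irradiated library 3 at 790 CPM. miR-1a-3p alone made up 45.4% to 69.4% of the muscle sum in irradiated lungs and 60.2% to 76.4% in controls. Of the 5 muscle markers, 2 were above 0 and 3 below. miR-206-3p stood at 50.7, 17.5, 37.4 and 40.3 CPM in irradiated libraries 1 to 4, against 14.6 to 24.7 CPM in controls. Endothelial markers summed to 57746, 41937, 37509 and 43110 CPM in irradiated libraries 1 to 4, against 41590 to 46383 CPM in controls. Of the epithelial, endothelial, erythroid and muscle markers 0 passed at day 180, and their part in the levels of miR-146b-5p, miR-155-5p and miR-147-3p was not tested.

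**Figure D4:**
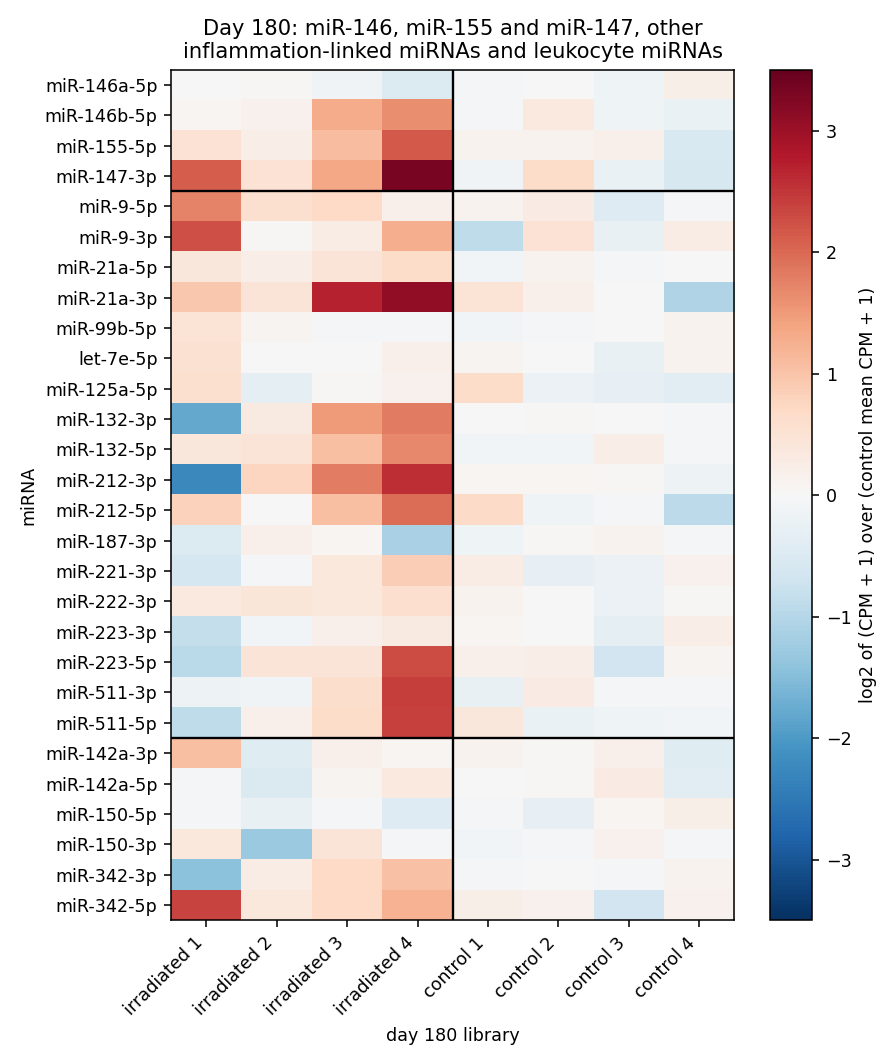
Level of 28 miRNAs in the 8 libraries of day 180, irradiated left of control, as log2 of CPM plus 1 over the control mean plus 1, in blocks of 4 miRNAs of the miR-146, miR-155 and miR-147 group, 18 other inflammation-linked miRNAs and 6 further leukocyte miRNAs. Irradiated libraries 3 and 4 are high for miR-146b-5p, miR-155-5p and miR-21a-3p, and the values drawn run from -2.26 to 3.31.

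The miRNAs most like each of the 3 abundant members were ranked by Pearson correlation of log2 CPM, centred on the mean of each day, over the 24 libraries and among 620 other miRNAs. For miR-155-5p they were miR-511-3p (r = 0.80), miR-210-3p (0.75) and miR-132-5p (0.75). For miR-146b-5p they were miR-132-5p (r = 0.77), miR-511-3p (0.75) and miR-501-3p (0.72). miR-511-3p and miR-132-5p stood in both, while miR-146a-5p had other neighbours, miR-450a-5p (r = 0.78), miR-467e-5p (0.73) and miR-150-5p (0.70), the last a miRNA of mature lymphocytes.

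These values describe likeness and are the highest of many, so they carry no p. The libraries share depth and scaling, and for miR-146b-5p the libraries farthest from the median were irradiated 3 and 4 of day 180. Without these 2 libraries r was 0.54 with miR-132-5p, 0.53 with miR-511-3p and 0.47 with miR-501-3p. For miR-155-5p, without irradiated library 4 and control library 4 of day 180, r was 0.58 with miR-511-3p, 0.43 with miR-210-3p and 0.53 with miR-132-5p. For miR-146a-5p, without irradiated library 4 of day 180 and irradiated library 1 of day 14, r was 0.56, 0.62 and 0.64 with the 3 miRNAs in the order named.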

How the data were processed

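The authors deposited, per the file headers, per-day tables that list mature miRNAs with a raw count and an RPM value per library. The deposited RPM values divide the counts by larger totals, 11984009 to 16081430 per library, of a content not stated in the files. The submitters' processing notes name Bowtie2 and GRCm38.p6, without saying what each was used for, and the labels mention no molecular identifiers. Libraries were grouped by their titles and columns matched by name.

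Each day was fitted alone with edgeR 4.0.16 (R 4.3.3) on all miRNAs kept by filterByExpr (499, 558 and 552), with TMM, the quasi-likelihood test and Benjamini-Hochberg adjustment at 0.05. Differences between days came from 1 fit of 24 libraries. The SE is derived from the F statistic. DESeq2 1.42.0 and limma 3.58.1 (voom), other scalings, filters and left-out libraries were alternatives. The fits were tested on simulated data. The members and lists were chosen with earlier results of these data known. Named are the members, their partner arms, listed miRNAs and the 3 miRNAs most like each member with at least 10 CPM on each day. At day 14 every same-numbered pair of libraries deviated together (r of 0.145 to 0.462), so the numbers were taken to pair these libraries. The day 14 fit has no block, and the blocked values stand beside it. On the other days not every same-numbered pair had an r over 0.1, so the numbers were not taken to pair.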

Additional observations from a re-analysis of the deposited data

Results flagged for a closer look

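In a group of 4 libraries, 1 value was marked where its gap to the next, divided by the group's range, exceeded Dixon's 95% critical value. Of 35 groups examined, 4 were marked, and chance alone marks about 1 in 20. miR-155-5p in control library 4 of day 180, at 315 CPM, lay below the other 3 controls, and without that library the log2 fold change of miR-155-5p was 1.03 (edgeR adjusted p = 0.383). miR-155-3p in irradiated library 4 of day 180 stood at 1.66 CPM, from 6 reads, above the others. miR-146a-3p in control library 4 (0.307 CPM) and miR-155-3p in irradiated library 4 (0.310 CPM) of day 14 had 1 read each where the other 3 libraries of their group had none.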

How the results depend on the processing

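No member passed at day 14 or day 90 under any alternative run. At day 180, 1 member passed with no filter, 1 with DESeq2 and 3 with all 24 libraries in 1 fit. Each of these counts includes miR-147-3p, which passed the main filter mainly through its irradiated reads. Over all miRNAs, no filter gave 7, 18 and 18 calls at day 14, day 90 and day 180, against 0, 2 and 0 as reported, DESeq2 gave 1, 18 and 29, and all 24 libraries in 1 fit gave 1, 0 and 32. A mean of at least 10 CPM gave 0 at day 90. For differences between days DESeq2 called 1 (day 90 minus day 14), 3 (day 180 minus day 14) and 3 (day 180 minus day 90). The replicate block gave 0 calls at day 90, and it changed no other call, of members or over all miRNAs; same-numbered libraries did not deviate together at day 90 and day 180. With 1 library left out, the calls over all miRNAs ran from 0 to 1 (day 14), 0 to 7 (day 90) and 0 to 5 (day 180). For day 180 minus day 14 they ran from 0 to 18 and for day 180 minus day 90 from 0 to 10, with 0 to 1 members called in each. The 18 and the 10 came without irradiated libraries 2 and 1 of day 180. Without control library 4 of day 90 the count was 7, and without irradiated library 2 of day 180 it was 5.

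Some values turned sign. That of miR-146a-5p at day 180 was 0.10 with the miR-146b-5p counts added, and its day 180 minus day 90 difference was 0.0204 with RLE size factors and 0.0204 with DESeq2. With 1 library left out, miR-155-5p at day 14 ran from -0.19 to 0.12. Day 90 minus day 14 ran from -0.058 to 0.18 for miR-146a-5p, -0.16 to 0.10 for miR-146b-5p, -0.32 to 0.037 for miR-155-5p and -0.18 to 0.81 for miR-147-3p. For miR-146a-5p day 180 minus day 14 ran from -0.0025 to 0.22 and day 180 minus day 90 from -0.095 to 0.18. The log2 ratio of miR-146a-5p over miR-146b-5p at day 14 ran from -0.035 to 0.14. The ratio of arms ran from -0.62 to 0.45 at day 90 and -0.95 to 0.044 at day 180 for miR-146a, and from -0.74 to 0.016 and -0.76 to 0.010 for miR-155. The cause of these turns was not tested. The fit on deposited RPM totals, chosen after seeing the data, changed no call of a member. Reads were few for miR-147-3p and both 3p arms. With 4 libraries a group, miR-146b-5p, miR-155-5p and miR-147-3p spread widely within irradiated lungs of day 180. The part of either in the calls was not tested.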
